A study of Mus musculus with 6 samples.

Results

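A set of 10 well-studied noncoding transcripts were followed in mouse neural stem cells that carried or lacked a deletion of Phf2, a histone demethylase gene. They were taken from the count table by gene symbol, which gave 10 of its 24503 symbols. Malat1, Neat1, Miat, Sox2ot, Rmst and Dlx6os1 are long noncoding RNAs, and Gas5, Snhg1, Snhg3 and Snhg12 are host genes of small nucleolar RNAs (snoRNAs). Of these 10, 8 had enough counts to be tested; Rmst and Dlx6os1 did not.

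RNA was sequenced from 3 KO libraries and 3 WT libraries. KO cells came from embryos with the Nestin-Cre transgene (B6.Cg-Tg(Nes-cre)1Kln/J) and floxed Phf2 on both alleles; the Nestin promoter drives the recombinase in neural progenitors. WT cells came from embryos with floxed Phf2 on both alleles and no Cre, so the floxed alleles are shared and the transgene is carried by KO cells alone. All cells were taken from E13.5 embryonic cortex, enriched as neurospheres and grown on laminin with fibroblast and epidermal growth factors. The labels do not say whether libraries of a group came from separate embryos or cultures, so the p-values reflect the scatter of these libraries alone, and that scatter may be technical. In bulk RNA, fewer cells of a type and less RNA per cell cannot be told apart.

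Total counts ranged from 33413444 to 42503715 in KO libraries and from 39120340 to 46890314 in WT libraries. Phf2 itself had 2315, 2041 and 1640 counts in KO 1, 2 and 3, against 4996, 3647 and 3670 in WT 1, 2 and 3; the count covers all exons, and which of them are deleted is not stated. All 14 neural stem cell markers were tested, and their summed level was 11252 to 12950 CPM (depth-scaled counts, per 1e6) in KO libraries and 11329 to 13101 CPM in WT libraries. Of these markers, 1 was called higher in KO with the block, Hes5 (log2 fold change 0.32 ± 0.0687, edgeR adjusted p = 0.0161), and 1 lower, Prom1, with 2.97 ± 0.389 CPM in KO and 7.54 ± 0.374 CPM in WT (adjusted p = 0.000204). Among all 13683 genes tested, 3.33% were called higher and 6.46% lower with the block. Markers of other neural lineages were present. Neuron markers summed to 637 to 774 CPM in KO and 549 to 770 CPM in WT. The sums were 218 to 255 CPM in KO and 353 to 522 CPM in WT for astrocyte markers. For oligodendrocyte lineage markers they were 260 to 383 CPM in KO and 193 to 345 CPM in WT. Markers of non-neural lineages were low. The summed level was 0.731 to 1.22 CPM in KO and 0.421 to 0.804 CPM in WT for 8 microglial genes. It was 1.72 to 2.38 CPM in KO and 1.88 to 2.57 CPM in WT for 7 endothelial genes. For 7 fibroblast and pericyte genes it was 1.02 to 1.603 CPM in KO and 1.63 to 3.22 CPM in WT. Of these, 1, 3 and 3 genes passed the filter, and Col1a2 of fibroblasts was called lower in KO with the block (adjusted p = 0.00949); Aif1, Ptprc, C1qa, Cdh5 and Dcn had 0 counts in every library. KO and WT libraries share the numbers 1 to 3, and a library numbered 1 resembled the other library numbered 1 more than the rest of its own genotype. Differences between KO and WT were therefore fitted without and with the replicate number as a block in the model.

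Malat1 is an abundant nuclear RNA that gathers in nuclear speckles, the stores of splicing factors, and Neat1 is the scaffold on which paraspeckles form. Miat is a nuclear RNA of neurons and retina that binds splicing factors. Sox2ot is transcribed across the locus of Sox2, a transcription factor that keeps neural stem cells undifferentiated, while Rmst has been described with SOX2 in human neural differentiation and Dlx6os1 (Evf2) acts on the Dlx5 and Dlx6 genes of the ventral forebrain. The snoRNA host genes work differently: their introns carry snoRNAs, which guide chemical modification of ribosomal RNA or its processing, and the spliced RNA that remains is exported and often removed by nonsense-mediated decay. Many such hosts have promoters of the terminal oligopyrimidine kind, which ribosomal protein genes also use, with a tract of pyrimidines at the start of transcription.

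The host genes are short loci packed with small RNAs. In the GENCODE vM21 annotation of GRCm38, Gas5 (chr1:161034422-161038539, plus strand) holds 10 snoRNA genes, Snhg1 (chr19:8723475-8726443, plus) holds 8, Snhg12 (chr4:132308623-132311024, plus) holds 5 and Snhg3 (chr4:132348014-132353686, minus) holds 2. The annotation lists Snord80 and Snora16a as a pair of overlapping genes each, so these counts include both entries. An snoRNA of each host is printed here to show what the introns carry; capitals mark the C box (TGATGA) and D box (CTGA) of the box C/D class, or the ACA near the 3′ end of the H/ACA class, all read on the strand of the gene from GENCODE.
Snord80 in Gas5, chr1:161037601-161037681, plus: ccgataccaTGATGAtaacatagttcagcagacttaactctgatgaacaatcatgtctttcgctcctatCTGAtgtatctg
Gm25855 in Snhg1, chr19:8723993-8724064, plus: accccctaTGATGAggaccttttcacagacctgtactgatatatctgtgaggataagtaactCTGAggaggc
Snord99 in Snhg12, chr4:132310691-132310764, plus: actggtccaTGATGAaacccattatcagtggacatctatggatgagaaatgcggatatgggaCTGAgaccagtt
Snora73a in Snhg3, chr4:132352775-132352979, minus: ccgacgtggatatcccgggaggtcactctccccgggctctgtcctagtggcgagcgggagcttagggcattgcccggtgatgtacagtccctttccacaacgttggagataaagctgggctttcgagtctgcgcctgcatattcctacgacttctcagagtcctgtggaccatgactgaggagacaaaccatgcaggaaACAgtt
Snord80 lies wholly inside an intron in 16 of the 25 annotated Gas5 transcripts, Snord99 in 6 of 10 Snhg12 transcripts, Snora73a in 4 of 5 Snhg3 transcripts and Gm25855 in 1 of 18 Snhg1 transcripts; the other transcripts retain it or do not span it. The snoRNAs themselves were hardly counted: of 110 snoRNA symbols in the table, 108 had 0 counts in every library, and the highest total over the 6 libraries was 1 count. The values that follow are those of the host transcripts.

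The start sites of the 4 hosts were compared because the genes moved together across libraries, as described later. Each line gives 60 bases before the start and 40 from the start on, from the RefSeq annotation of GRCm38.p6. Capitals mark the letters TATA where they lie wholly within the 20 bases that begin 40 bases before the start. They also mark any run of 8 or more pyrimidines (C or T) within the 20 bases before and 30 bases from the start. Gas5 has a pair of start sites in the table, and the downstream one is shown.
Gas5, chr1:161035106-161035205, plus: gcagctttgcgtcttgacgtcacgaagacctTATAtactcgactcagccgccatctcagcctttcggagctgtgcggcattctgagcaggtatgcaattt
Snhg1, chr19:8723427-8723526, plus: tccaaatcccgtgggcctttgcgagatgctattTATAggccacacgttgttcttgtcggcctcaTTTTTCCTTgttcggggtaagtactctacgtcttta
Snhg12, chr4:132308618-132308717, plus: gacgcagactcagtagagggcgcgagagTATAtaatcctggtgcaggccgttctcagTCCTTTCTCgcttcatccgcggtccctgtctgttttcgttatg
Snhg3, chr4:132353647-132353746, minus: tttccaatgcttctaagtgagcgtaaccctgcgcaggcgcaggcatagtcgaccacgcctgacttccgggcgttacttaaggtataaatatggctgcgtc
TATA, searched on the strand of the gene, began 29 bases before the start of Gas5, 27 before that of Snhg1 and 32 before that of Snhg12. The upstream start of Gas5 had neither TATA nor the run. TATA was thus found at 1 start or more of 3 of the 4 hosts, and in 5.34% of the 32851 promoter windows in the table. The line of Snhg3 holds TATA only after the annotated start, outside the bases searched. A run of 8 or more pyrimidines was found in Snhg1 and Snhg12, 2 of the 4 hosts, and in 19% of all windows. Relative to the start, it began at position 5 in Snhg1 and -3 in Snhg12. Shorter runs at the start were not counted. The longest run was 6 bases at the downstream start of Gas5, from position -1, and 5 bases in Snhg3, from position 3. Over the 19 listed snoRNA hosts with a promoter in the table, 8 had the run and 5 had TATA in at least 1 window. The 19 include the 4 member hosts, which make up 2 of the 8 and 3 of the 5. Malat1, Miat and Dlx6os1 also had promoters in the table; 0 of these 3 had the run, and Dlx6os1 had TATA at its second start.

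The transcripts spanned a wide range of levels, best seen per kilobase of the longest annotated transcript. On this scale Malat1 (chr19:5795690-5802672, minus) averaged 100.4 CPM per kb in KO libraries and 89.2 CPM per kb in WT libraries, and it was above every other member in each of the 6 libraries. Snhg3 averaged 16.98 CPM per kb in KO and 15.1 CPM per kb in WT, and Gas5 averaged 12.98 CPM per kb in KO and 12.04 CPM per kb in WT. Snhg3 was above Gas5 in 6 of 6 libraries on this scale, though the ranges over libraries overlapped, and in 4 of 6 with all annotated exons merged. The order of the next 3 changed between libraries: Snhg12 averaged 5.98 CPM per kb in KO and 6.15 in WT, Sox2ot 5.55 in KO and 7.48 in WT, and Snhg1 5.44 in KO and 5.09 in WT. Neat1 (1.08 CPM per kb in KO, 1.11 in WT) and Miat (0.624 in KO, 0.944 in WT) came last among the tested members; Miat was above Neat1 in the libraries numbered 1 and below it in the other 4.

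**Figure D1:**
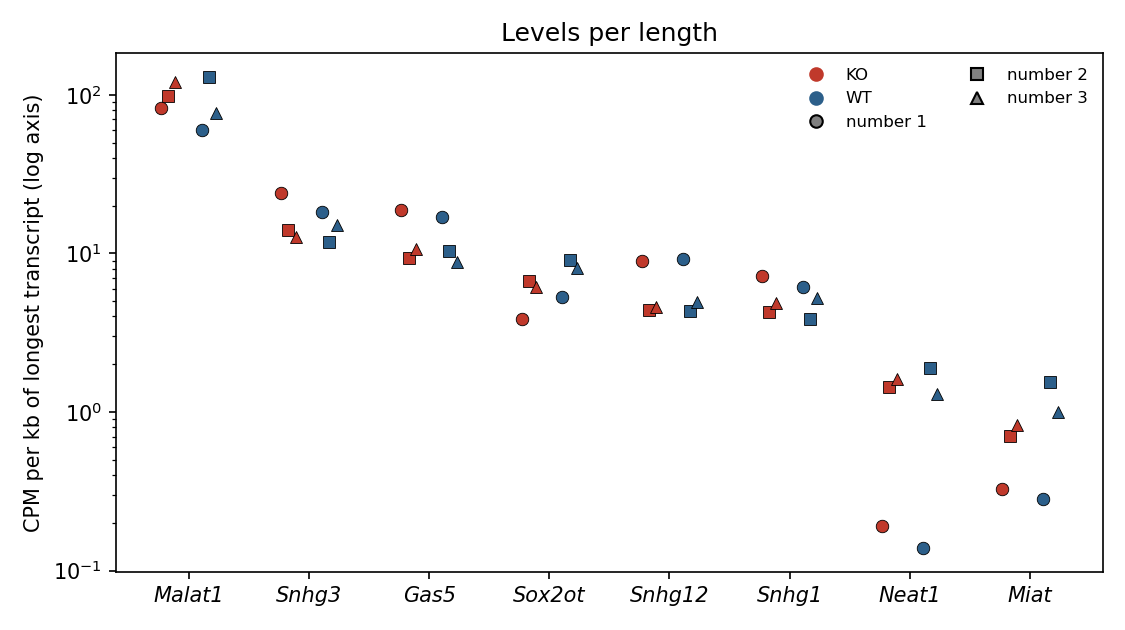
CPM per kilobase of the longest annotated transcript (log axis) for the 8 tested members, ordered by level; each point is a library, red for KO and blue for WT, with the shape giving the replicate number. Malat1 lies between 60.1 and 130.2 CPM per kb in the 6 libraries, and Neat1 and Miat lie below 2 with their number 1 libraries (circles) lowest.

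These per-length levels rest on which transcript is taken. With all annotated exons merged, Sox2ot, whose 18 transcripts spread over 578350 bases, averaged 1.67 CPM per kb in KO libraries and 2.25 in WT libraries. Snhg3 averaged 10.0 CPM per kb in KO and 8.88 in WT on that basis, and Gas5 averaged 8.82 in KO and 8.18 in WT. Neat1 transcripts are annotated with lengths from 711 to 20771 bases, and a level set on the longest gives the lowest value per kb. Malat1 ends in a triple helix in place of the usual poly(A) tail, as does the long Neat1 isoform; the labels speak of mRNA without saying how it was selected, so the recovery of these RNAs is not known.

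Malat1 had 576.7, 686.0 and 841.6 CPM in KO 1, 2 and 3, against 419.8, 909.0 and 539.5 CPM in WT 1, 2 and 3. The highest and the lowest library were both WT, and the groups overlapped. Malat1 averaged 701 ± 133 CPM in KO and 623 ± 255 CPM in WT (SD, n = 3 each). The log2 fold change of KO over WT was 0.17 ± 0.303 (SE), with a 95% interval from -0.56 to 0.90 (edgeR quasi-likelihood test, Benjamini-Hochberg adjusted p = 0.999). With the block it was 0.23 ± 0.207, with an interval from -0.29 to 0.75 and an adjusted p of 0.571. Within numbers 1, 2 and 3, KO minus WT was 0.46, -0.41 and 0.64 on the log2 scale. With number 2 left out of the blocked fit, the value was 0.55 ± 0.103 and Malat1 was called (adjusted p = 4.45e-06), so this call rests on which numbers enter.

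Neat1 (chr19:5824708-5845478, minus), which lies beside Malat1 on the same strand, had 3.94, 29.8 and 33.3 CPM in KO 1, 2 and 3, against 2.87, 39.1 and 27.0 CPM in WT 1, 2 and 3. The libraries numbered 1 stood far below the other 4 in both genotypes, with 162 counts in KO 1 and 132 in WT 1 against 1121 to 1577 counts elsewhere. The spread within a genotype was thus 8.46-fold among KO libraries and 13.6-fold among WT libraries. Without the block the log2 fold change was -0.04 ± 1.03, with an interval from -2.53 to 2.44. With the block it was 0.06 ± 0.149, from -0.27 to 0.40 (edgeR, adjusted p = 0.846). Within numbers 1, 2 and 3, KO minus WT was 0.45, -0.39 and 0.30 on the log2 scale, so the sign changed between numbers.

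Miat (chr5:112213228-112229395, minus) had 2.99, 6.51 and 7.64 CPM in KO 1, 2 and 3, against 2.59, 14.2 and 9.22 CPM in WT 1, 2 and 3. The number 1 libraries were again the lowest of each genotype, and WT 2 was the highest of all. Miat averaged 5.71 ± 2.42 CPM in KO and 8.65 ± 5.81 CPM in WT. Neither fit called it: the log2 fold change was -0.60 ± 0.634, from -2.13 to 0.93 (adjusted p = 0.999), and with the block -0.46 ± 0.218, from -0.96 to 0.04 (edgeR, adjusted p = 0.248). Within the numbers the difference of KO minus WT was 0.21, -1.12 and -0.27 on the log2 scale, so the largest gap came from number 2.

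Sox2ot (chr3:34104270-34682619, plus) was lower in KO within every number, and it was the member whose difference from WT passed the test with the block. It had 553, 984 and 718 counts in KO 1, 2 and 3, against 854, 1273 and 1326 counts in WT 1, 2 and 3. Scaled to depth, this was 13.45, 23.2 and 21.3 CPM in KO, against 18.6, 31.6 and 28.1 CPM in WT. The groups overlapped, because WT 1 lay below KO 2 and KO 3. Within numbers 1, 2 and 3 the difference of KO minus WT was -0.46, -0.44 and -0.40 on the log2 scale.

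Sox2ot averaged 19.3 ± 5.17 CPM in KO and 26.1 ± 6.73 CPM in WT (SD, n = 3 each). Without the block, the log2 fold change was -0.43 ± 0.279 with an interval from -1.11 to 0.24, and it was not called (edgeR, adjusted p = 0.999). With the block it was -0.43 ± 0.0771, from -0.61 to -0.26, and it was called (edgeR, adjusted p = 0.00633). That block matches number 2 with 2 and 3 with 3, which the data cannot show. With KO 2 and KO 3 summed and number 1 against the others as block, the edgeR adjusted p was 0.0476. Without number 1 and without a block, the value was -0.42 ± 0.102 and was not called (edgeR, adjusted p = 0.0711). Sox2ot was called in 8 of 22 alternatives. Among all 13683 genes tested, 23.6% lay below WT within all 3 numbers and 6.46% were called lower with the block. Sox2, which sits within the span of Sox2ot on the same strand and shares 0 exon bases with it, had 389, 608 and 614 CPM in KO 1, 2 and 3, against 345, 515 and 537 CPM in WT 1, 2 and 3. Sox2 was thus above WT within each number, with a log2 fold change of 0.20 ± 0.0632 with the block and 0.20 ± 0.243 without it, called in neither fit (edgeR, adjusted p = 0.0783 and 0.999).

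Of the 6 listed astrocyte markers, 4 were called lower in KO with the block, including Gfap and Aldh1l1, against 6.46% of all genes. Without the block 0 of the 6 were called. The summed level of the 6 was 218 to 255 CPM in KO libraries and 353 to 522 CPM in WT libraries, with none at 0. Their part in the Sox2ot difference was not tested.

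**Figure D2:**
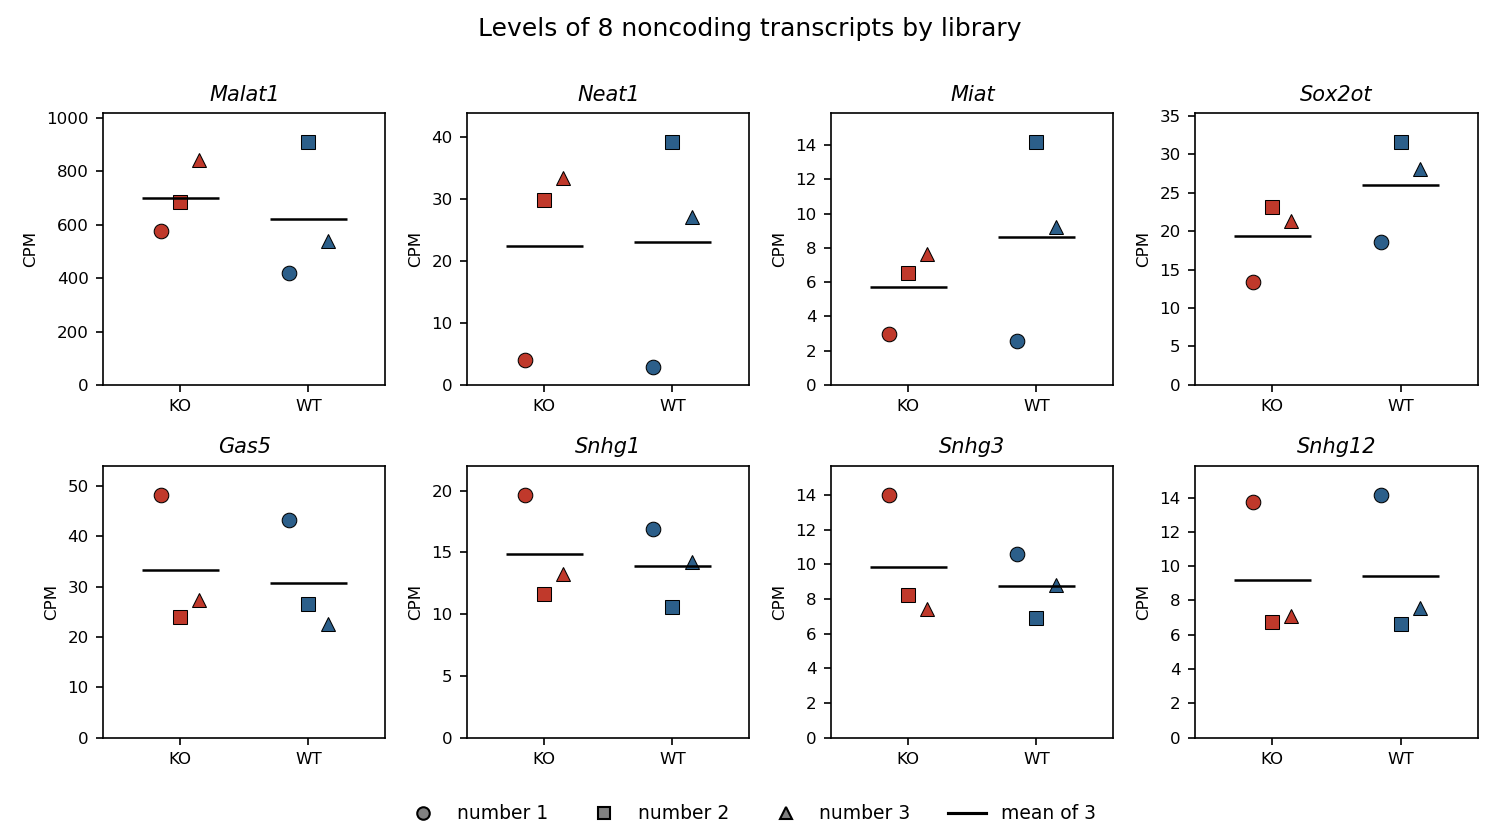
CPM (linear axes from 0) of the 8 tested members in each library, KO left and WT right; circles, squares and triangles are the libraries numbered 1, 2 and 3, and bars are means of 3. The circles lie lowest for Neat1, Miat and Sox2ot and highest for the 4 snoRNA hosts in both genotypes, and no member has KO and WT libraries that do not overlap.

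Of the 4 snoRNA hosts, 0 were called between KO and WT by edgeR in either fit. Gas5, which hosts box C/D snoRNAs and is known for accumulating in growth-arrested cells, had 48.2, 24.0 and 27.4 CPM in KO 1, 2 and 3, against 43.2, 26.6 and 22.5 CPM in WT 1, 2 and 3. The KO mean was 33.2 ± 13.1 CPM and the WT mean 30.8 ± 11.01 CPM (SD, n = 3 each). The number 1 libraries were the highest in both genotypes, by more than the gap between genotypes. The log2 fold change was 0.11 ± 0.352, from -0.74 to 0.96, without the block (edgeR, adjusted p = 0.999) and 0.10 ± 0.0913, from -0.10 to 0.30, with it (adjusted p = 0.568).

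Snhg1 had 19.6, 11.6 and 13.3 CPM in KO 1, 2 and 3, against 16.9, 10.6 and 14.2 CPM in WT 1, 2 and 3. Snhg3, host of the Snora73 snoRNAs that take part in processing of the ribosomal RNA precursor, had 13.99, 8.20 and 7.40 CPM in KO, against 10.6, 6.89 and 8.79 CPM in WT. Snhg12 had 13.7, 6.77 and 7.11 CPM in KO, against 14.2, 6.62 and 7.59 CPM in WT. In each of these genes the 2 libraries numbered 1 were the highest of all 6, and the genotypes overlapped. Without the block the log2 fold changes were 0.10 ± 0.263 for Snhg1, 0.17 ± 0.297 for Snhg3 and -0.04 ± 0.403 for Snhg12 (edgeR, adjusted p = 0.999 for each). With the block they were 0.09 ± 0.0989 for Snhg1, 0.14 ± 0.134 for Snhg3 and -0.04 ± 0.103 for Snhg12, with edgeR adjusted p-values of 0.652, 0.571 and 0.872. The intervals, from -0.13 to 0.31 for Snhg1, from -0.16 to 0.44 for Snhg3 and from -0.27 to 0.19 for Snhg12, all include 0.

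The annotation leaves the count of Snhg3 uncertain. Snhg3 shares 135 exon bases, 13.7% of its own, with the chromatin factor gene Rcc1 on the same strand, and 705 bases, 71.5%, with the noncoding gene Gm17300 on the opposite strand, which has no entry in the table. The labels do not say whether counting used strand. Rcc1 averaged 90.7 CPM in KO and 85.5 CPM in WT and, like Snhg3, was not called between genotypes (edgeR with the block, adjusted p = 0.536). Miat shares 24.3% of its exon bases with Gm26953 on the opposite strand.

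In all, 0 of the 8 tested members were called between KO and WT without the block, by edgeR or by the DESeq2 Wald test, and 0 had an unadjusted p under 0.05 by edgeR; 0.0585% of all genes were called and 5.81% had an unadjusted p under 0.05. With the block, 1 of 8 was called, Sox2ot, which was lower; 9.79% of all genes were called, 6.46% lower and 3.33% higher. KO and WT libraries were fully apart for 0 of 8 members and for 11.2% of all genes, 6.71% with KO lower and 4.49% with KO higher. KO lay on the same side of WT within all 3 numbers for 1 of 8 members and for 46.2% of all genes. The median log2 fold change with the block was 0.08 over the 8 members and 0.01 over all genes.

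**Figure D3:**
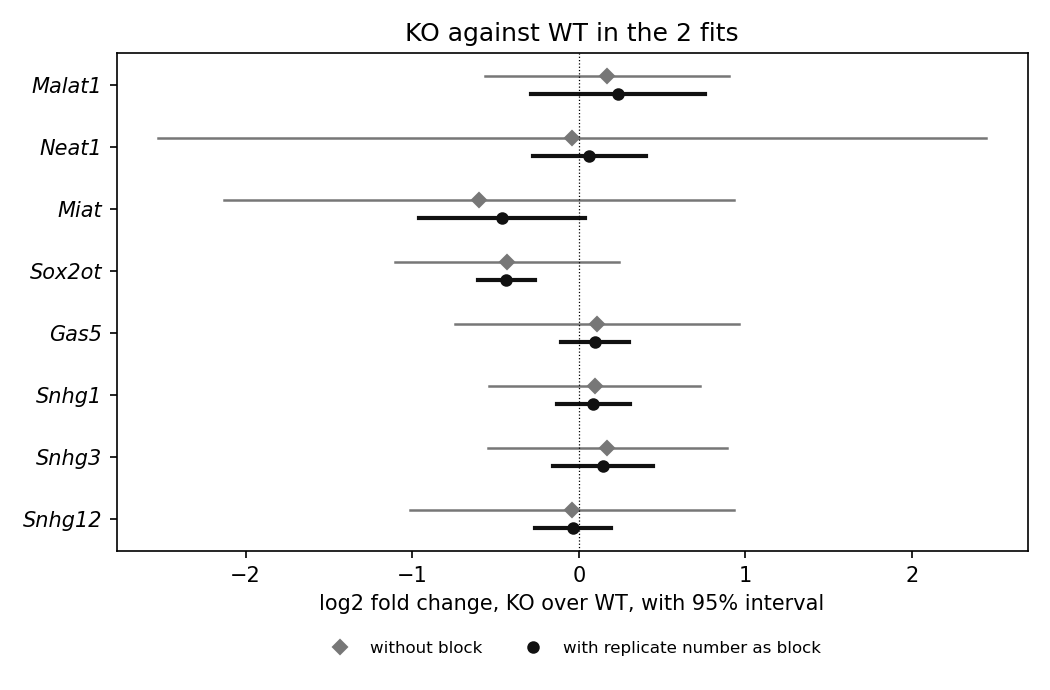
Log2 fold change of KO over WT with its 95% interval for the 8 tested members, without the block (grey diamonds) and with the replicate number as block (black circles). The interval of Sox2ot with the block, from -0.61 to -0.26, is the one that does not reach 0; for Neat1 the unblocked interval runs from -2.53 to 2.44 and the blocked one from -0.27 to 0.40.

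Rmst (chr10:92071037-92165170, minus) had 0 counts in all 6 libraries, which allows up to 3 counts each, or 0.0707 to 0.0892 CPM in KO libraries and 0.0636 to 0.0744 CPM in WT libraries, from counting error alone. Dlx6os1 (chr6:6820189-6871592, minus) had 2, 2 and 1 counts in KO 1, 2 and 3, against 0, 0 and 3 counts in WT 1, 2 and 3, so it was at or under that floor everywhere and no fold is given. The Dlx genes beside it were nearly as low: Dlx5 had 7, 0 and 2 counts in KO, against 1, 4 and 0 in WT, and Dlx6 had 4, 2 and 7 counts in KO, against 3, 3 and 5 in WT. A difference between genotypes was not detectable at this depth for these genes.

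Several of these RNAs differed more between replicate numbers than between genotypes. Neat1 averaged 3.41 CPM in the 2 libraries numbered 1 and 32.3 CPM in the other 4, which is 9.49-fold lower in number 1. Miat was 3.36-fold lower, with 2.79 CPM in number 1 and 9.38 CPM in the others, and Sox2ot was 1.63-fold lower, with 16.0 CPM in number 1 and 26.1 CPM in the others. Gas5 was 1.82-fold higher, with 45.7 CPM in number 1 and 25.1 CPM in the others, and Snhg12 was 1.99-fold higher, with 13.9 CPM in number 1 and 7.02 CPM in the others. Snhg3 and Snhg1 were 1.57-fold and 1.47-fold higher in number 1.

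An edgeR quasi-likelihood test of the replicate number with the genotype in the model, chosen after the pattern was seen, called 7 of the 8 tested members, while it called 49.0% of all genes. The Benjamini-Hochberg adjusted p was 7.81e-06 for Neat1, 0.000118 for Snhg12, 0.000143 for Gas5, 0.000239 for Sox2ot, 0.00164 for Miat, 0.00223 for Snhg1 and 0.0093 for Snhg3. Malat1 was not called (adjusted p = 0.141). All 4 hosts were called higher in number 1, as were 24.1% of all genes, and Neat1, Miat and Sox2ot were called lower in number 1, as were 24.9% of all genes. Of all genes, 4.56% had number 1 at least 3-fold apart from the other libraries, as did Neat1 and Miat. The libraries numbered 1 were the deepest of each genotype, with 42503715 counts in KO 1, against 42244273 and 33413444 in KO 2 and 3, and 46890314 counts in WT 1, against 39120340 and 46709076 in WT 2 and 3; the part of depth was not tested.

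**Figure D4:**
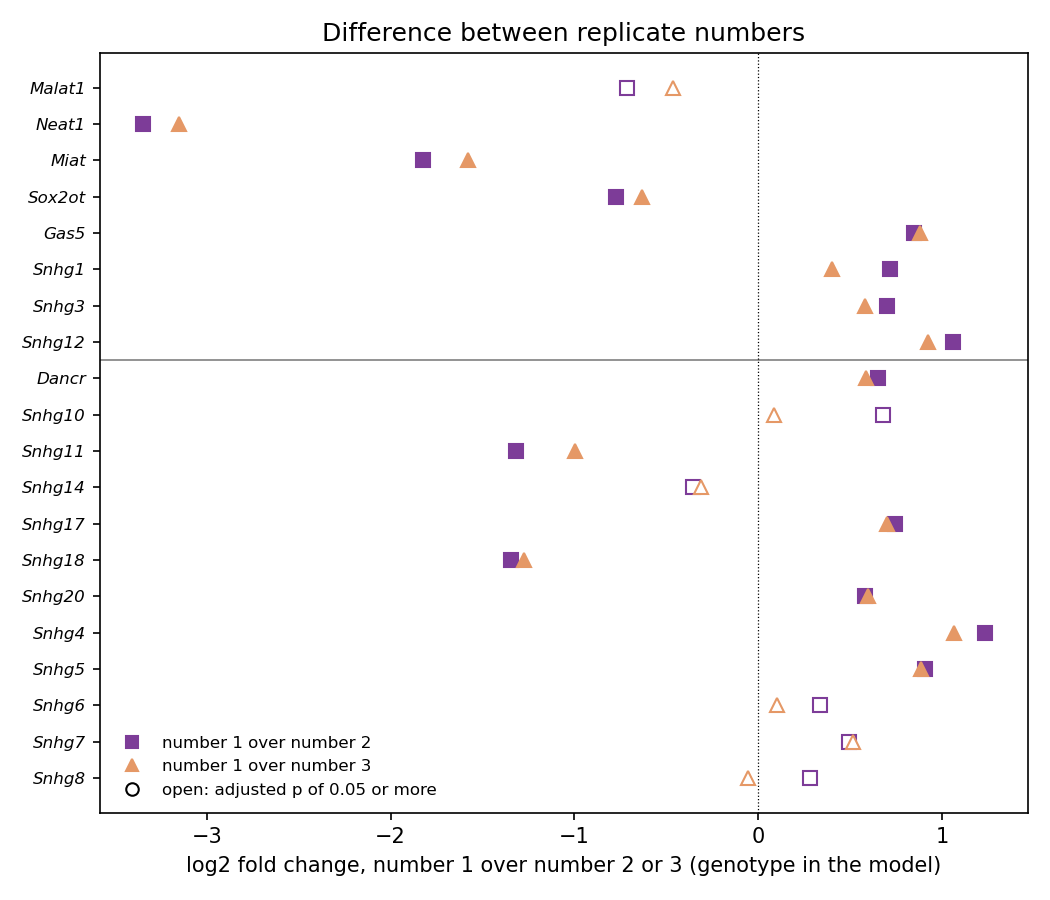
Log2 fold change of number 1 over number 2 (squares) and over number 3 (triangles), from the model with genotype, for the 8 tested members above the line and the 12 other tested snoRNA hosts below it; filled symbols have an adjusted p under 0.05. Neat1 lies lowest at -3.35 and -3.15, and the 4 member hosts lie between 0.40 and 1.06.

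Other snoRNA hosts were mixed. Of all genes, 49.0% were called for the number, 24.1% higher and 24.9% lower in number 1. Of 16 tested genes in a list of 23 snoRNA hosts, 11 were called for the number, 9 higher and 2 lower in number 1; the 2 lower were Snhg11 and Snhg18, which are named because the count is small. Leaving out the 4 members, 7 of 12 were called, 5 higher and 2 lower, and 5 were not called. Of 17 tested genes for proteins that assemble on snoRNAs, 16 were called, all 16 higher in number 1, among them Nop56, a core protein of box C/D particles, with 239.5 CPM in KO 1 against 109.6 and 109.4 CPM in KO 2 and 3, and 214.9 CPM in WT 1 against 97.7 and 98.2 CPM in WT 2 and 3. Nolc1, a chaperone of these particles, had 261.9 CPM in KO 1 and 252.0 CPM in WT 1, against 111.1 to 121.0 CPM in the other 4 libraries.

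Counting both directions, genes for proteins of the bodies of Neat1 and Malat1 were called for the number about as often as the 49.0% of all genes. By direction, 24.1% of all genes were called higher and 24.9% lower in number 1, while most calls in these lists were higher. Of 25 paraspeckle proteins tested, 14 were called for the number, 12 higher and 2 lower in number 1. Sfpq, which Neat1 needs for its stability, had 911 CPM in KO 1 and 845 CPM in WT 1, against 625 to 646 CPM in the other 4 libraries, while Hnrnpk was not called (edgeR, adjusted p = 0.120). Of 23 nuclear speckle proteins, 12 were called, all 12 higher in number 1, including the splicing factor Srsf1; the scaffold protein Srrm2 was not called (adjusted p = 0.336). Of 18 nonsense-mediated decay factors, 5 were called, a smaller share than the 49.0% of all genes in both directions. All 5 were higher in number 1, as were 24.1% of all genes. They included Upf1, the central helicase of the pathway, and Eif4a3 of the exon junction complex.

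Cell type markers differed between numbers as well. The summed level of the 14 neural stem cell markers was 11252 to 11329 CPM in the libraries numbered 1 and 12279 to 13101 CPM in the others. The sum for oligodendrocyte lineage markers was 193 to 260 CPM in number 1 and 314 to 383 CPM in the others, and that for neuron markers, most of it Map2, was 770 to 774 CPM in number 1 and 549 to 642 CPM in the others. Of 7 neuron markers tested, 2 were called higher in number 1, Map2 and Gad1, and 3 lower, Tubb3, Stmn2 and Syt1. Of the 14 stem cell markers, 1 was called higher and 9 lower. All 5 tested oligodendrocyte lineage markers were called lower, and of 6 astrocyte markers 1 was called higher and 3 lower. The shares of all genes were 24.1% higher and 24.9% lower in number 1. What part these differences have in the levels of the noncoding RNAs was not tested. The labels do not say what a replicate number stands for.

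Between genotypes, with the block, 0 of 16 snoRNA hosts, 0 of 17 snoRNP genes and 0 of 25 paraspeckle genes were called. The same held for 0 of 23 speckle genes and 0 of 18 decay factors, while 9.79% of all genes were called. The median log2 fold changes of these lists were 0.09, 0.09, 0.06, 0.10 and 0.04. Snhg6, the host with the highest mean CPM before any scaling to length, had 38.4 ± 4.03 CPM in KO and 33.8 ± 6.21 CPM in WT and was not called (edgeR, adjusted p = 0.280). Without the block, 0 genes of any of these lists were called, against 0.0585% of all genes.

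Among 27 other long noncoding RNAs tested, 1 rose and 4 fell in KO with the block. Of all genes, 3.33% were called higher and 6.46% lower with the block. Without the block 0 of the 27 were called. Their median log2 fold change was -0.07. Six3os1, which neighbours the forebrain gene Six3, rose: it had 68.3, 107.7 and 110.7 CPM in KO 1, 2 and 3, against 49.0, 88.8 and 81.0 CPM in WT 1, 2 and 3 (log2 fold change 0.40 ± 0.0681, edgeR adjusted p = 0.00483; without the block 0.39 ± 0.281, adjusted p = 0.999). The imprinted Meg3 had 2, 0 and 5 counts in KO, against 20, 117 and 96 counts in WT (adjusted p = 0.000811), and Rian, from the same cluster, had 3, 3 and 1 counts in KO, against 23, 88 and 80 counts in WT (adjusted p = 0.000373). Nkx2-2os had 4, 20 and 12 counts in KO, against 26, 54 and 53 counts in WT (adjusted p = 0.00893). Trp53cor1, named after its values were seen because it completes the count, had an adjusted p of 0.0492 and a log2 fold change of -0.38 ± 0.105. KO and WT libraries of Meg3, Rian, Nkx2-2os and Emx2os did not overlap, with KO lower, as for 6.71% of all genes. Emx2os was not called (edgeR with the block, adjusted p = 0.0514). Six3os1 and Nkx2-2os lie opposite other genes, and reads from any bases they share cannot be told apart if counting ignored strand. Shared bases were measured for the 10 members alone.

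Genes listed as neighbours of the members were compared by genotype as well. Of 18 neighbours tested, 1 was called with the block, against 9.79% of all genes. It was Nedd1 (chr10:92684746-92722420), a centrosome protein gene listed for Rmst (chr10:92071037-92165170) but not directly beside it. Nedd1 averaged 55.1 ± 11.5 CPM in KO and 44.5 ± 13.7 CPM in WT. Its log2 fold change was 0.33 ± 0.0745 with the block (edgeR, adjusted p = 0.0210) and 0.31 ± 0.252 without it (edgeR, adjusted p = 0.999). Ltbp3, Frmd8, Slc25a45 and Tigd3, near Malat1 and Neat1, were not called, and neither were Zbtb37 beside Gas5, Slc3a2 and Wdr74 beside Snhg1, or Rcc1, Phactr4, Trnau1ap and Taf12 beside Snhg3 and Snhg12. By replicate number 9 of the 18 were called, 5 higher and 4 lower in number 1, while 49.0% of all genes were called. Rcc1 had 142.2 CPM in KO 1 and 130.9 CPM in WT 1, against 60.8 to 66.1 CPM in the other 4 libraries, the same direction as Snhg3 with which it shares exon bases.

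The genes with the most similar pattern were sought by Pearson correlation of log2 CPM over the 6 libraries, which share their depth and number with the members. Rcan3 was closest to Neat1, Klhl42 to Gas5, Mina to Snhg12, Glrx3 to Snhg1, Aacs to Snhg3, Iqsec1 to Miat, Sgsm2 to Sox2ot and Zfp27 to Malat1. Such likeness was common. Of 9585 or 9586 genes compared, the number over 0.9 was 1870 for Snhg12, 1707 for Gas5, 1566 for Neat1, 997 for Snhg3, 863 for Miat, 858 for Snhg1, 688 for Sox2ot and 111 for Malat1.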

How the data were processed

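For 6 libraries the authors deposited raw counts, whole numbers with a row for each gene symbol. RSEM, Bowtie2, Trim Galore, cutadapt and FastQC and the build mm10 are named, per the submitters' processing notes. Tool versions, gene annotation, strand setting and how RSEM estimates were rounded are each not given in the sources used here. Counts entered the tests as deposited. The 10 symbols were looked up as rows; the members and gene lists were chosen with earlier results of these data known.

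In R 4.3.3 with edgeR 4.0.16, filterByExpr kept 13683 genes, libraries were scaled by TMM, and a robust quasi-likelihood model was tested two-sided with Benjamini-Hochberg adjustment over all genes (called: adjusted p under 0.05). CPM values are TMM-scaled; intervals are 95% intervals from the moderated t distribution. The code was tested on simulated data. An exact permutation test of 3 against 3 cannot go below 0.1 and was not used.

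Same-numbered KO and WT libraries deviated together from their group means (correlations over 13683 genes 0.854, 0.604 and 0.580, all over 0.1), so the numbers were treated as pairs. This pairing comes from the data, not the labels. Numbers 2 and 3 were as alike across as within (KO 3 with WT 2, 0.633). The correlations thus set number 1 apart but cannot match number 2 with 2 or 3 with 3. The blocked fit and the differences within numbers 2 and 3 rest on that matching. KO 2 and KO 3 differed by more than counting noise (19.5% of genes past a limit that counting passes in 5%) and entered as separate samples. Alternatives were the block, DESeq2 1.42.0, other scalings, no filter, and leaving out libraries. The replicate number test was added after seeing the data. Positions, lengths and snoRNA sequences come from GENCODE vM21 on GRCm38, the assembly of mm10, and promoters from RefSeq GRCm38.p6, which held 7 of the 10 members; coordinates are 1-based. Genes named beside the members were those called with the block, up to 4 per list by lowest p, or otherwise the 2 of highest mean CPM, plus neighbours (some are not reported here) and the 3 most similar genes by pattern, of which the closest is given.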

Additional observations from a re-analysis of the deposited data

How the results depend on the processing

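Without the block 8 genes were called between KO and WT, and 0 of the tested members. The count of all genes rose to 1340 with the replicate number as block, 1251 with DESeq2 size factors and the block, 1310 with upper-quartile scaling and the block, 241 by the DESeq2 Wald test and 1194 by that test with the block. It was 0 with KO 2 and KO 3 summed and 688 when number 1 against the others was the block in addition. Leaving out libraries gave 0 to 21 genes for a single library and 0 to 743 for a number, and the settings with 0 calls had 249 to 864 genes at an unadjusted p under 0.05; with the block, an alternative added after seeing the data, leaving out numbers 1, 2 and 3 gave 1037, 1248 and 1456. Members called were 1, Sox2ot, under each of these settings with a block, and 2 when number 2 was left out, with Malat1 higher at 0.55 (edgeR, adjusted p = 4.45e-06); that setting drops the pair in which Malat1 was lower in KO. Sox2ot kept its sign in 22 of 22 alternatives (-0.62 to -0.23), was called in 8 and had adjusted p from 0.00376 to 1.00 over them. Miat kept its sign in 22 (-1.03 to -0.04) and Neat1 in 12; for the 8 members together 154 of 176 values kept their sign. Scalings moved the median of all genes to between -0.03 and 0.02. Members with few counts, Rmst and Dlx6os1, are limited by depth, and 3 libraries a group with unequal numbers limit the unblocked fit.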
